A study of Mus musculus with 22 samples.

Results

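The heptad is a set of transcription factors that bind together at blood and endothelial enhancers, and 7 genes of it and of its core complex were followed here: Tal1, Lyl1, Lmo2, Gata2, Erg, Fli1 and Ldb1. Runx1, which completes the heptad, is given only as a reference point. The 7 genes were chosen by name, and all 7 were found among the 24454 gene symbols of the count table. They were read across 22 bulk RNA-seq libraries of C57BL/6 mouse embryos, each made by SMART-Seq2 from 25 cells sorted by flow cytometry from the aorta-gonad-mesonephros region (AGM), where the first haematopoietic stem cells form. Every cell had been gated as positive for VE-cadherin, the endothelial junction protein, and no group carried a mutation or received a treatment.

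The libraries fell into 4 populations by surface CD44 and Kit. CD44Neg cells, which the labels call endothelial, gave 10 libraries, of which 4 were from E9.5, 3 from E10 and 3 from E11. CD44LowKitNeg cells, called hemogenic endothelial, gave 6, with 3 from E11, 2 from E10 and 1 from E9.5. CD44LowKitPos cells, called Pre-HSPC, gave 3, with 2 from E10 and 1 from E9.5, and CD44High cells, called HSPC (haematopoietic stem and progenitor cells), gave 3, all at E11. CD44LowKitPos and CD44High therefore shared no stage, and population and stage cannot be told apart between them. Nothing in the sources states that the libraries came from separate embryos, so p-values measure only the spread between these libraries, which may be technical.

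TAL1 and LYL1 are related basic helix-loop-helix factors that bind E-box DNA as dimers with E-proteins. LMO2 is a LIM-only adaptor without DNA binding of its own, and LDB1 is the dimerising cofactor that joins LMO2, the helix-loop-helix pair and a GATA factor in 1 complex. GATA2 is the GATA factor of early progenitors, and ERG and FLI1 are closely related ETS factors with roles in both endothelium and blood stem cells. Most of these genes are active in endothelial and in blood cells, and their joint occupancy is known as a feature of the passage from haemogenic endothelium to blood progenitors.

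In the GRCm38 assembly (GENCODE vM21 annotation) the genes lie on 7 chromosomes: Tal1 at chr4:115056426-115071755 on the plus strand, Lyl1 at chr8:84701457-84704715 (plus), Lmo2 at chr2:103957986-103981878 (plus), Gata2 at chr6:88193891-88207032 (plus), Erg at chr16:95359169-95586593 (minus), Fli1 at chr9:32422204-32542861 (minus) and Ldb1 at chr19:46031570-46045214 (minus). Counts came from their exons, which cover between 1.8 kb (Lyl1) and 4.311 kb (Ldb1). Lyl1 shares 4 exon bases with Nfix on the opposite strand, and Ldb1 overlaps Pprc1 but shares 0 exon bases with it. Nfix averaged 0.358, 9.35, 1.90 and 3.23 normalised CPM (counts scaled to the size of the library) in the 4 populations in the order above, far under the levels of Lyl1. The strand setting of the counting is not given in the sources used here, so reads from that overlap cannot be told apart by strand.

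The RefSeq promoter table (GRCm38.p6) matched 5 of the 7 genes, and Fli1 and Lmo2 are named only. The windows printed are the 250 bases upstream of a transcript start, on the gene's own strand. They are given for the 3 genes whose level differed between populations in the tests that follow, Lyl1, Gata2 and Erg. For Erg, which has 3 windows, the third is shown because it was the one with matches to the motifs searched, and for Gata2, which has 2, the downstream one is shown. Capitals mark a match, on either strand, to a GATA motif (AGATAA or TGATAA) or an ETS motif (CCGGAA or AGGAAG).
Lyl1, chr8:84701207-84701456, plus strand: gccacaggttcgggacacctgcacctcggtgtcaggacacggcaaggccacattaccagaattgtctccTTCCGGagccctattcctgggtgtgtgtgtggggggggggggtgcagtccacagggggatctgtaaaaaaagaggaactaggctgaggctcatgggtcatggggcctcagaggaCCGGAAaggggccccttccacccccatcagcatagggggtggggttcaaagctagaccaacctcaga
Gata2, chr6:88198414-88198663, plus strand: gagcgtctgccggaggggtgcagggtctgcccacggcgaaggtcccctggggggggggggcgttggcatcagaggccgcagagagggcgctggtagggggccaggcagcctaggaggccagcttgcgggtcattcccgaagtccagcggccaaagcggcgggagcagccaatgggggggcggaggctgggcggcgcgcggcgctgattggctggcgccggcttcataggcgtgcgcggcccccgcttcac
Erg, chr16:95459349-95459598, minus strand: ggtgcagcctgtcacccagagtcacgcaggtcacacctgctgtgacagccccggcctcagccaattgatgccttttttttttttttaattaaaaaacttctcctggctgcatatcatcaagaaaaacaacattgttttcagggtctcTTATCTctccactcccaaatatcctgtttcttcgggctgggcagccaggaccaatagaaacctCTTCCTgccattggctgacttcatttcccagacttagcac

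The Lyl1 window held ETS letters at -181 and -67 from the start, which is the kind of sequence that ERG and FLI1 themselves bind. The Erg window held GATA letters at -103 and ETS letters at -40, and the Gata2 window held no match to any motif searched. An E-box (CAGCTG or CAGATG) and a RUNX motif (TGTGGT or TGCGGT) were also searched and occurred in none of the 3 windows. Over the 32851 promoter windows of the same length, 38.2% held the ETS letters, 16.6% the GATA letters, 25.5% the E-box and 18.6% the RUNX letters. The matches printed do not overlap each other, and at these shares they are a description of the letters and not of binding.

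Between 3912350 and 8657546 reads were counted per library. A count of 3, taken as the most that a count of 0 allows, corresponded to between 0.348 and 0.816 CPM, and this covers counting error only because the reads carry no molecular identifiers. The precursor ribosomal RNA Rn45s took between 1.92 and 23.9% of the counts. All 7 genes were above 3 counts in 21 of the 22 libraries, and the exception was Erg in CD44High replicate 22. Because each library is a pool of sorted cells, fewer cells that express a gene and less RNA per cell cannot be told apart. Cd44 RNA averaged 29.9 CPM in CD44Neg and between 254 and 268 CPM in the other populations, and Kit averaged 230 CPM in CD44LowKitPos and between 46.9 and 75.9 CPM elsewhere.

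The CD44High libraries stood apart in their markers. Cdh5, which encodes the VE-cadherin of the gate, was at 0 counts in all 3, against a mean of 344 CPM in CD44Neg, 956 CPM in CD44LowKitNeg and 168 CPM in CD44LowKitPos. The summed level of 6 endothelial markers was 14.3 to 65.0 CPM in CD44High, 488 to 1215 CPM in CD44LowKitPos and at least 2200 CPM in each of the other libraries. Of 6 macrophage markers (Adgre1, Csf1r, C1qa, C1qb, C1qc and Mrc1), 6 were present in CD44High, with sums of 1193 to 3396 CPM. In CD44LowKitNeg and CD44LowKitPos, Adgre1 and the 3 C1q genes were at 0 throughout and the sums did not pass 39.3 CPM. The 6 blood markers summed to 1074 to 2001 CPM in CD44High, 225 to 934 CPM in CD44LowKitPos, 42.4 to 156 CPM in CD44LowKitNeg and 15.2 to 46.6 CPM in CD44Neg, where Ptprc was at 0. Erythroid markers reached 255 CPM and mesenchyme markers 179 CPM in CD44High. Mesenchyme markers summed to 2.03 to 76.2 CPM in CD44LowKitNeg (median 19.8) and up to 27.2 CPM in CD44Neg (median 1.09). Erythroid markers summed to 13.8 to 61.3 CPM (median 32.0) and 2.61 to 23.7 CPM (median 8.62) in these 2 populations. Megakaryocyte markers had medians of 17.2 and 2.85 CPM there. The part of these markers in the differences between those populations was not tested. Megakaryocyte markers summed to 59.6 to 228 CPM in CD44High and 24.3 to 125 CPM in CD44LowKitPos, and neural markers did not pass 10.5 CPM in any library. Rn45s took 16.6 to 23.9% of the CD44High counts and 6.82 to 9.26% of the CD44LowKitPos counts. The results on CD44High stand beside these values, whose part in them was not tested.

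The comparisons of populations asked how each gene differed along the passage from endothelium to blood cells. Differences are log2 fold changes from edgeR's quasi-likelihood test, fitted on all genes and adjusted over all of them by Benjamini-Hochberg, and a gene was called at an adjusted p under 0.01. CD44LowKitNeg was compared with CD44Neg over 16 libraries, and the 5 other comparisons came from 1 fit of 22 libraries and share their groups, so their values are not independent of each other.

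Of the 7 genes, 2 were higher in CD44LowKitNeg than in CD44Neg (Gata2 and Lyl1), where 4.94% of all genes tested were called higher. Against the same CD44Neg libraries, 1 was higher in CD44LowKitPos (Lyl1), where 2.08% of genes were called higher. Erg was the 1 gene lower in CD44High than in CD44LowKitNeg (8.17% of genes called lower) and the 1 gene lower in CD44High than in CD44Neg (7.25% called lower). None was called by edgeR, DESeq2 or limma voom between CD44LowKitPos and CD44LowKitNeg (4.26% called), where 0 of the 7 had an unadjusted p under 0.05, beside 3525 of 12949 genes. At E10 alone, Lyl1 (0.88 ± 0.32, edgeR adjusted p = 0.123) and Fli1 (-0.72 ± 0.33, edgeR adjusted p = 0.258) had one there, as did Fli1 and Erg with DESeq2 size factors (edgeR adjusted p = 0.128 and 0.176) and Fli1 with stage as a covariate (edgeR adjusted p = 0.0806). None was called by any of these tools between CD44High and CD44LowKitPos (3.01% called), where Erg and Gata2 had an unadjusted p under 0.05, as did 2306 of 12949 genes. The median log2 fold change of the 7 genes was 0.46 for CD44LowKitNeg, 0.60 for CD44LowKitPos and -0.19 for CD44High against CD44Neg. It was -0.41 for CD44LowKitPos and -1.05 for CD44High against CD44LowKitNeg, and -0.72 for CD44High against CD44LowKitPos, beside medians over all genes between -0.02 and 0.01.

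**Figure D1:**
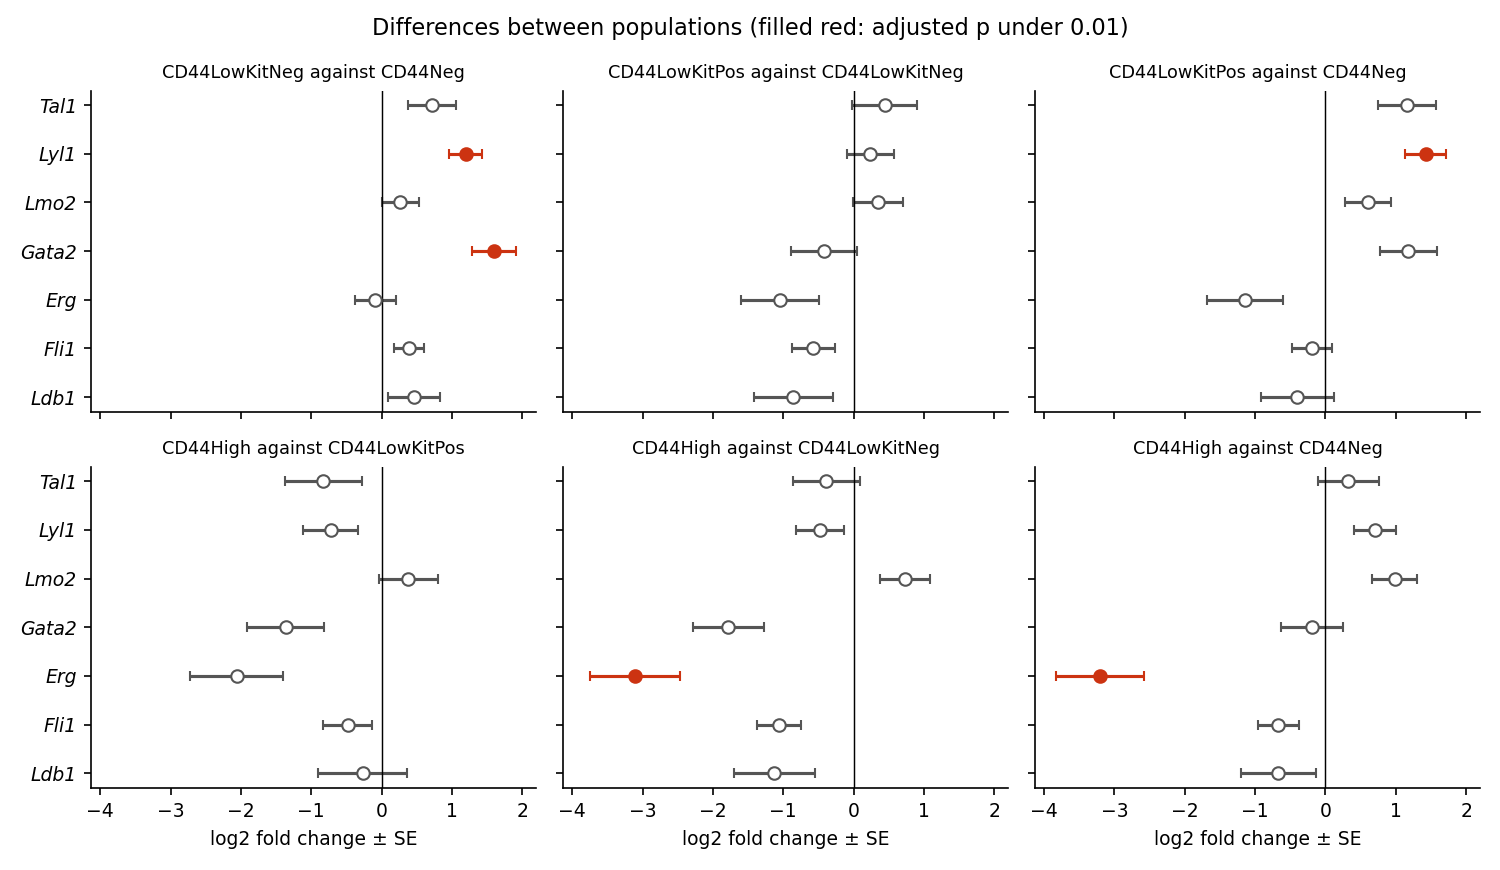
Log2 fold change (horizontal axis, ± SE) of each of the 7 genes in the 6 comparisons of populations, with filled red points for an edgeR adjusted p under 0.01. Red points stand at Gata2 and Lyl1 (higher) in CD44LowKitNeg against CD44Neg, at Lyl1 (higher) in CD44LowKitPos against CD44Neg, and at Erg (lower) in CD44High against CD44LowKitNeg and against CD44Neg.

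Lyl1, one of the helix-loop-helix factors, was called higher in CD44LowKitNeg and in CD44LowKitPos than in CD44Neg. Its level ran from 42.9 CPM (lowest) through a median of 57.5 to 87.5 CPM (highest) in CD44Neg, and from 61.4 CPM through 135 to 228 CPM in CD44LowKitNeg. The CD44LowKitPos libraries held 246, 170 and 83.7 CPM and the CD44High libraries 83.1, 101 and 119 CPM. Thus 5 of the 6 CD44LowKitNeg libraries and 2 of the 3 CD44LowKitPos libraries lay above every CD44Neg library, and in each of these populations the single E9.5 library (61.4 and 83.7 CPM) lay within the CD44Neg range. The difference was 1.19 ± 0.23 (SE) in log2 between CD44LowKitNeg and CD44Neg (edgeR adjusted p = 0.00103) and 1.43 ± 0.29 between CD44LowKitPos and CD44Neg (edgeR adjusted p = 0.00284). The first held with each library left out in turn (edgeR adjusted p at most 0.00415). It was called at E11 alone (1.61 ± 0.26, edgeR adjusted p = 0.000683) and not at E10 alone (0.65 ± 0.28, edgeR adjusted p = 0.235). Over all genes the contrast called 422 at E11 and 30 at E10. The second was 1.53 ± 0.28 at E10 alone (edgeR adjusted p = 0.00156) but was lost without CD44LowKitPos replicate 17 or 18, the E10 libraries, with a log2 fold change as low as 1.04 and an edgeR adjusted p as high as 0.0871. CD44High did not differ from any other population for Lyl1 by the threshold in the fit over all stages. Within E11 it was lower than CD44LowKitNeg by -1.01 ± 0.26 in log2 (edgeR adjusted p = 0.00617).

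Tal1, the other helix-loop-helix factor and a gene needed for all blood formation, gave no call. CD44Neg libraries ran from 6.09 CPM through a median of 19.5 to 45.4 CPM, and CD44LowKitNeg libraries from 25.2 CPM through 34.9 to 37.3 CPM. The CD44LowKitPos libraries held 42.3, 61.0 and 35.1 CPM and the CD44High libraries 21.2, 12.2 and 44.3 CPM. All 6 CD44LowKitNeg libraries were above the CD44Neg median but inside its range, and the highest value of all was in a CD44LowKitPos library. The differences from CD44Neg were 0.71 ± 0.34 for CD44LowKitNeg (edgeR adjusted p = 0.146), 1.15 ± 0.41 for CD44LowKitPos (edgeR adjusted p = 0.0917) and 0.32 ± 0.43 for CD44High (edgeR adjusted p = 0.655), and none was called. The last became -0.33 without CD44High replicate 22. Whether Tal1 and Lyl1 differed in their change was not tested.

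Lmo2, the adaptor, had its highest mean in CD44High. CD44Neg libraries ran from 46.4 CPM through a median of 88.6 to 150 CPM, and CD44LowKitNeg libraries from 55.2 CPM through 124 to 150 CPM. The CD44LowKitPos libraries held 211, 112 and 92.6 CPM and the CD44High libraries 215, 143 and 184 CPM. All 3 CD44High libraries were above the medians of the other populations, yet the lowest of them lay inside the CD44Neg range. The difference between CD44High and CD44Neg was 0.98 ± 0.32 in log2 and did not pass the threshold (edgeR adjusted p = 0.0270). At E11 alone, where CD44Neg held between 46.4 and 69.8 CPM, it was 1.51 ± 0.33 and did (edgeR adjusted p = 0.00281). Lmo2 was the 1 gene of the 7 with its highest mean in CD44High, whereas Gata2, Erg, Fli1 and Ldb1 had their lowest mean there.

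Ldb1, the cofactor, was low throughout and gave no call. CD44Neg libraries ran from 8.53 CPM through a median of 25.2 to 46.8 CPM, CD44LowKitNeg libraries from 12.9 CPM through 26.0 to 62.6 CPM, and the other libraries held 29.0, 17.7 and 10.1 CPM (CD44LowKitPos) and 5.74, 17 and 24.5 CPM (CD44High). The 4 populations overlapped. Over all stages, the largest of the 6 differences between populations was -1.12 ± 0.57 between CD44High and CD44LowKitNeg (edgeR adjusted p = 0.156), which at E11 alone was -1.71 ± 0.57 (edgeR adjusted p = 0.0297). Between CD44LowKitNeg and CD44Neg it was 0.46 ± 0.37 pooled, -0.41 ± 0.62 at E10 and 0.94 ± 0.55 at E11.

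Gata2 peaked in CD44LowKitNeg. CD44Neg libraries ran from 9.10 CPM through a median of 21.5 to 39.0 CPM, whereas CD44LowKitNeg libraries ran from 44.6 CPM through 65.3 to 94.5 CPM. The CD44LowKitPos libraries held 42.5, 67.5 and 37.7 CPM, and the CD44High libraries 14.6, 35.1 and 7.62 CPM. CD44LowKitNeg lay above all CD44Neg libraries, as 2.5% of all genes did, and above all CD44High libraries, as 11.7% of all genes did, and CD44LowKitPos overlapped both CD44LowKitNeg and CD44Neg. Gata2 rose by 1.60 ± 0.31 in log2 from CD44Neg to CD44LowKitNeg (edgeR adjusted p = 0.00101), and the call held with each library left out in turn (edgeR adjusted p at most 0.00428) and with stage as a covariate (1.44 ± 0.27, edgeR adjusted p = 0.000782). It was not called within a single stage, where the differences were 1.08 ± 0.55 at E10 (edgeR adjusted p = 0.318) and 1.64 ± 0.51 at E11 (edgeR adjusted p = 0.0597).

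From CD44LowKitNeg to CD44High the Gata2 difference was -1.78 ± 0.51 in log2, just short of the threshold (edgeR adjusted p = 0.0111). At E11 alone it was -2.12 ± 0.52 and passed (edgeR adjusted p = 0.00447), and over the fits that left out 1 library the edgeR adjusted p ran from 0.00213 to 0.0557, under the threshold without CD44Neg replicate 3, 4 or 7, CD44LowKitNeg replicate 14 or CD44High replicate 21. CD44LowKitPos lay 1.18 ± 0.40 above CD44Neg (edgeR adjusted p = 0.0789) and -0.41 ± 0.47 from CD44LowKitNeg (edgeR adjusted p = 0.624).

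Erg fell in CD44High. CD44Neg libraries ran from 20.3 CPM through a median of 34.2 to 57.0 CPM, and CD44LowKitNeg libraries from 19.5 CPM through 28.6 to 56.4 CPM. The CD44LowKitPos libraries held 14.4, 14.8 and 17.6 CPM, and the CD44High libraries 2.18, 8.79 and 0.272 CPM, which were 11, 33 and 1 reads. The 3 CD44High libraries lay below every CD44Neg and CD44LowKitNeg library, as was so for 9.12% of all genes against CD44Neg and 11.7% against CD44LowKitNeg. The 3 CD44LowKitPos libraries lay below every CD44Neg and CD44LowKitNeg library, as 4.37% and 7.35% of all genes did. The drop was -3.11 ± 0.64 in log2 against CD44LowKitNeg (edgeR adjusted p = 0.000834) and -3.21 ± 0.63 against CD44Neg (edgeR adjusted p = 0.000492). Both calls held in every fit that left out 1 library, with a largest edgeR adjusted p of 0.00745 and 0.00608, and at E11 alone (-3.65 ± 0.72, edgeR adjusted p = 0.000620, and -3.16 ± 0.70, edgeR adjusted p = 0.00310).

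The step from CD44LowKitPos to CD44High was -2.06 ± 0.66 for Erg and was not called (edgeR adjusted p = 0.0673), although it was called without CD44High replicate 21, the highest of the 3 (-3.63, edgeR adjusted p = 0.00246). The steps into CD44LowKitPos were -1.05 ± 0.56 from CD44LowKitNeg (edgeR adjusted p = 0.234) and -1.15 ± 0.54 from CD44Neg (edgeR adjusted p = 0.227), and neither was called. CD44LowKitNeg and CD44Neg differed by -0.09 ± 0.29 (95% interval -0.66 to 0.48), and the sign turned without CD44Neg replicate 9 or CD44LowKitNeg replicate 14, 15 or 16 (0.05 at most).

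Fli1, the other ETS factor and a regulator of both endothelial and blood genes, gave no call. CD44Neg libraries ran from 137 CPM through a median of 197 to 384 CPM, and CD44LowKitNeg libraries from 186 CPM through 249 to 447 CPM. The CD44LowKitPos libraries held 147, 186 and 215 CPM and the CD44High libraries 94.2, 184 and 115 CPM. The 3 CD44High libraries lay below all 6 CD44LowKitNeg libraries by a narrow margin, as 11.7% of all genes did, and overlapped the other populations. The difference from CD44LowKitNeg was -1.05 ± 0.31 and missed the threshold (edgeR adjusted p = 0.0144), and over the fits that left out 1 library its edgeR adjusted p ran from 0.00565 to 0.0614, under the threshold without CD44Neg replicate 6 or 8, CD44LowKitNeg replicate 12 or CD44High replicate 21. Against CD44Neg the difference of CD44High was -0.67 ± 0.29 (edgeR adjusted p = 0.101). With stage as a covariate CD44LowKitNeg lay 0.53 ± 0.15 above CD44Neg, which did not pass the threshold (edgeR adjusted p = 0.0190). With DESeq2 both Fli1 and Gata2 were called lower in CD44High than in CD44LowKitNeg, as were 1664 of 12863 genes.

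**Figure D2:**
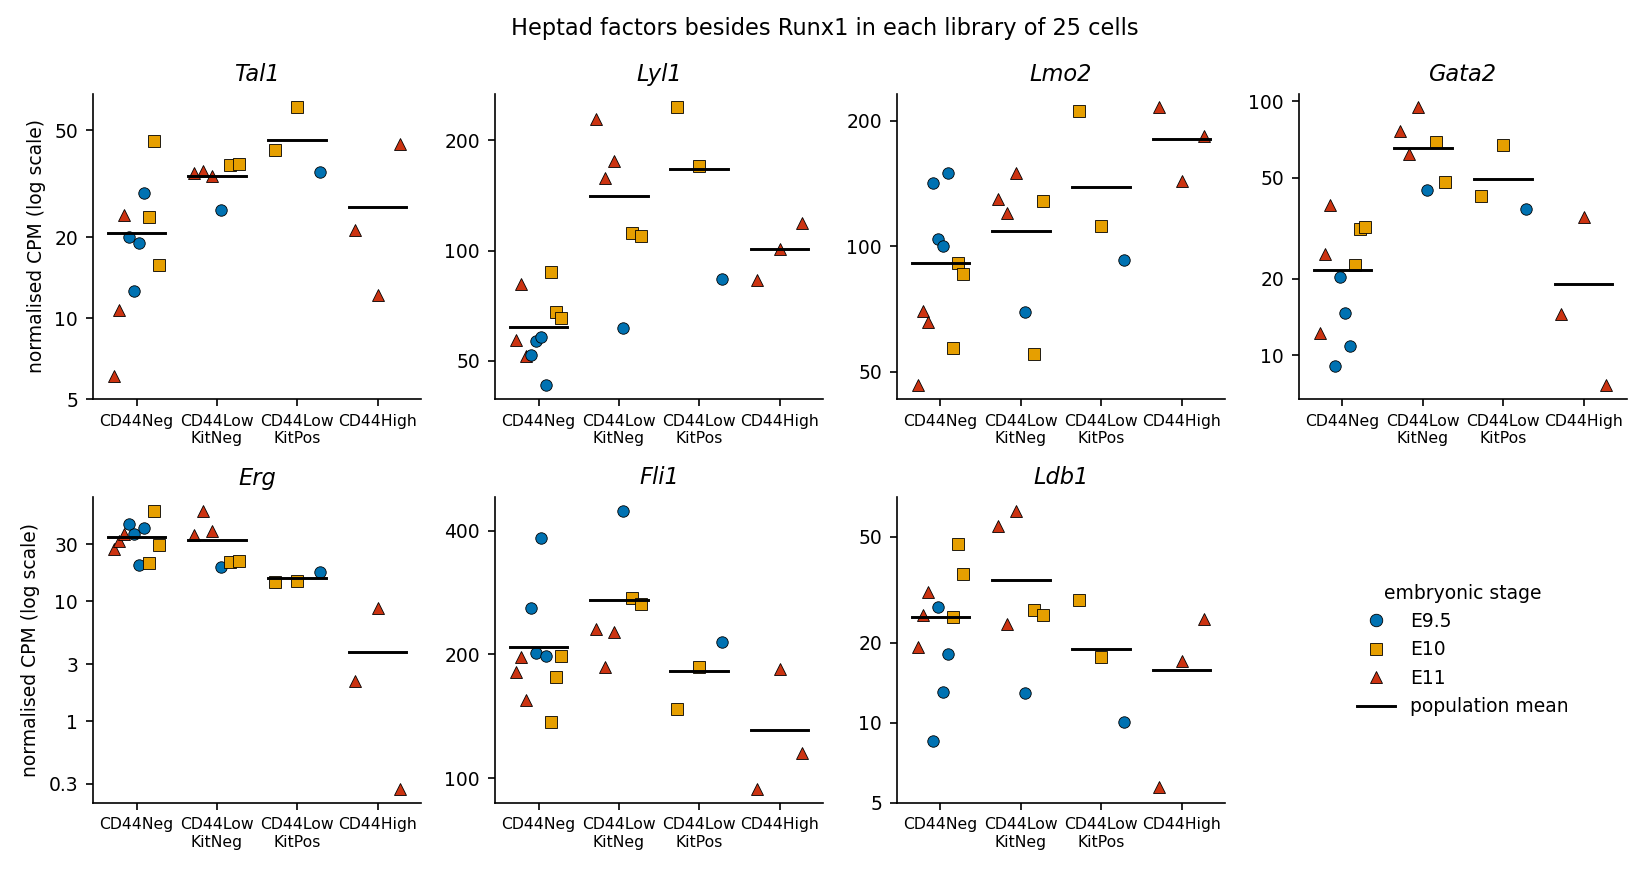
Normalised CPM (vertical axis, log scale) of each of the 7 genes in every library, by population, with the symbol marking the embryonic stage and the line the population mean. The CD44LowKitNeg points of Gata2 (44.6 to 94.5 CPM) stand above all CD44Neg points, and the CD44High points of Erg (0.272 to 8.79 CPM) stand below all CD44Neg and CD44LowKitNeg points.

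Ordered by mean, Tal1 and Lyl1 were highest in CD44LowKitPos (46.1 ± 13.3 and 167 ± 81.4 CPM, SD, n = 3), followed by CD44LowKitNeg, CD44High and CD44Neg. Lmo2 rose in the order CD44Neg, CD44LowKitNeg, CD44LowKitPos and CD44High (91.2 ± 34.3 to 181 ± 36.3 CPM). Gata2, Fli1 and Ldb1 were highest in CD44LowKitNeg (65.7 ± 18.5, 272 ± 91.2 and 34.3 ± 19.7 CPM, n = 6) and lowest in CD44High (19.1 ± 14.3, 131 ± 46.9 and 15.8 ± 9.44 CPM, n = 3). Erg fell in the order CD44Neg, CD44LowKitNeg, CD44LowKitPos and CD44High (34.6 ± 11.1 to 3.75 ± 4.47 CPM). These means pool stages that are unevenly represented in the populations. CD44LowKitNeg was above CD44Neg for Ldb1 at E11 but below it at E9.5 (12.9 and 16.7 CPM) and E10 (26.0 and 35.9 CPM), below it for Lmo2 at E9.5 (69.4 and 124 CPM), where CD44LowKitPos (92.6 CPM) was too, and above it for Erg at E11 (43.7 and 32.0 CPM). No pair of neighbours in any of these 7 orders was called by edgeR in the fits over all stages and libraries. The calls of Lyl1 between CD44LowKitNeg and CD44High at E11 alone and of Erg between CD44LowKitPos and CD44High without CD44High replicate 21, given above, are between neighbours.

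Levels can be compared between genes only per length of exon. On that scale Fli1, Lmo2 and Lyl1 were the 3 highest genes in every population, with means between 34.5 CPM per kb (Lyl1 in CD44Neg) and 95.4 CPM per kb (Lmo2 in CD44High), and Tal1, Gata2, Erg and Ldb1 were at 17.8 CPM per kb or less. The order within the upper group differed between populations. Fli1 was first in CD44Neg (62.9 ± 20.9 CPM per kb, SD) and in CD44LowKitNeg (81.9 CPM per kb), Lyl1 in CD44LowKitPos (92.6 CPM per kb) and Lmo2 in CD44High (95.4 CPM per kb). The first gene lay within 1 SD of the next in CD44Neg (Lmo2, 48.2 CPM per kb), CD44LowKitNeg (Lyl1, 78.4 CPM per kb) and CD44LowKitPos (Lmo2, 73.2 CPM per kb), and in CD44High Lmo2 (± 19.2) lay further than that from Lyl1 (56.1 ± 9.93 CPM per kb). In the lower group Gata2 was first in CD44LowKitNeg and CD44LowKitPos (17.8 and 13.4 CPM per kb), Erg in CD44Neg (9.98 CPM per kb) and Tal1 in CD44High (6.05 ± 3.87 CPM per kb, with Gata2 at 5.2 ± 3.88). These orders were not tested.

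**Figure D3:**
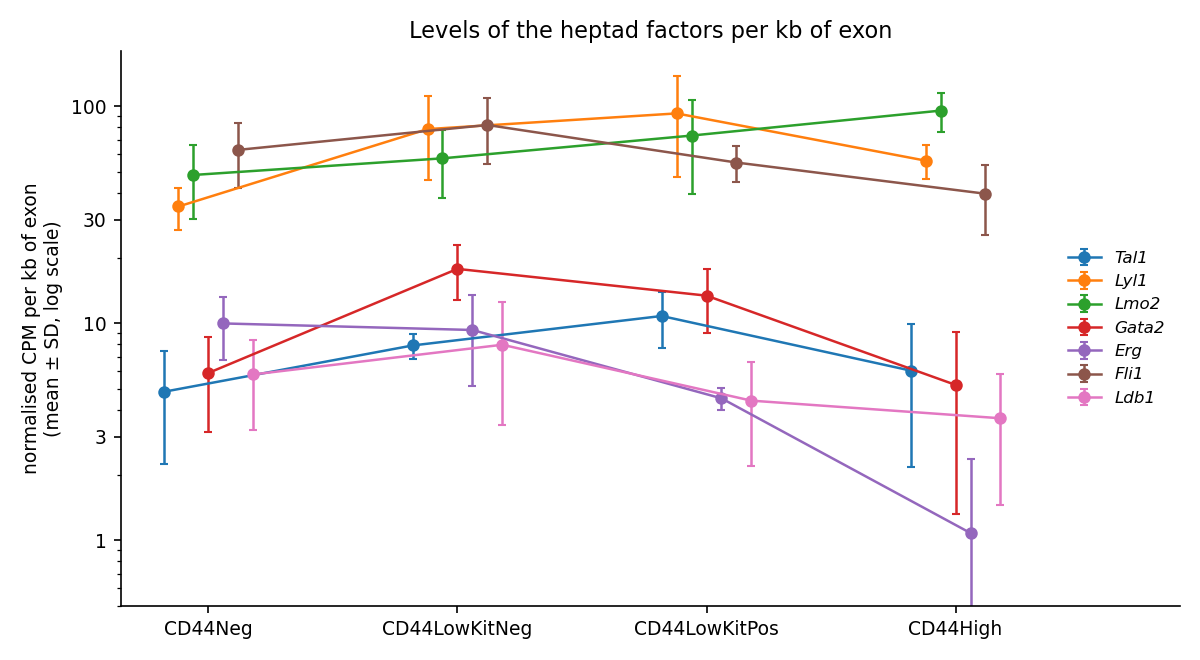
Mean ± SD of the normalised CPM per kb of exon (vertical axis, log scale) of the 7 genes in each of the 4 populations. Fli1, Lyl1 and Lmo2 stay at or above 34.5 CPM per kb throughout, and Erg drops from 9.98 CPM per kb in CD44Neg to 1.08 CPM per kb in CD44High.

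Ratios within a library do not depend on the scaling between libraries. Per kb, Erg was between 5.06 and 31.1% of Fli1 in CD44Neg (median 16.1%), between 4.17 and 29.0% in CD44LowKitNeg (median 11.3%), between 7.61 and 9.40% in CD44LowKitPos and between 0.227 and 4.58% in CD44High. Of the 3 CD44High libraries, 2 lay below all other libraries in this ratio, and the third (4.58%) lay below all but the lowest CD44LowKitNeg library. Whether Erg and Fli1 differed in their change was not tested. Tal1 was between 4.49 and 28.5% of Lyl1 in CD44Neg and between 5.10 and 15.7% in CD44High, and the 4 populations overlapped.

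The stage comparisons asked whether the genes moved between E9.5 and E11 within a population, and whether the step from CD44Neg to CD44LowKitNeg depended on stage. None of the 7 genes was called by edgeR, DESeq2 or limma voom between E11 and E9.5 within CD44Neg, where 0.0411% of all genes were called by edgeR. Lmo2 and Fli1 had an unadjusted p under 0.05 there, as did 1739 of 14609 genes. Lmo2 held 142, 104, 100 and 150 CPM in the CD44Neg libraries of E9.5, 57.1, 91.3 and 85.9 CPM at E10 and 46.4, 69.8 and 65.7 CPM at E11. The E11 libraries were all below those of E9.5, as was so for 8.29% of all genes, and the log2 fold change from E9.5 to E11 was -1.07 ± 0.31 (edgeR adjusted p = 0.137).

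Within CD44LowKitNeg, E11 was compared with E9.5 and E10 together, where 1.19% of all genes were called and none of the 7 was called by edgeR. Lyl1 held 228, 158 and 176 CPM at E11, 112 and 110 CPM at E10 and 61.4 CPM at E9.5, and the E11 libraries lay above the earlier ones without overlap, as did 9.32% of all genes. Its log2 fold change was 1.06 ± 0.26 (edgeR adjusted p = 0.0247), and DESeq2 and limma voom called it, among 598 of 14546 and 520 of 14609 genes. Lmo2 (0.71 ± 0.33) and Ldb1 (1.22 ± 0.55) also had an unadjusted p under 0.05, as did 2510 of 14609 genes. Runx1 was the heptad gene that was called here: it was at 0 counts in all 3 E11 libraries of CD44LowKitNeg and of CD44Neg, and at 54.7, 129 and 44.8 CPM in the CD44LowKitNeg libraries of E9.5 and E10. The sample descriptions end in a date that changes with the stage, so date and stage cannot be told apart. Rn45s took 17.4, 18.6 and 19.2% of the counts in the CD44LowKitNeg libraries of E11. In those of E9.5 and E10 it took 7.29, 9.71 and 11.1%, and its part in these stage differences was not tested.

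The interaction, the CD44LowKitNeg minus CD44Neg difference at E11 less that at E10, called 0.0137% of all genes and none of the 7 by edgeR, DESeq2 or limma voom. Its value was positive for 6 of the 7 genes, from 0.56 ± 0.76 (Gata2) to 1.35 ± 0.83 (Ldb1), and -0.40 ± 0.40 for Fli1. Lyl1 (0.96 ± 0.39, edgeR adjusted p = 0.442) was the 1 gene of the 7 with an unadjusted p under 0.05, where 1341 of 14609 genes had one. The within-stage differences of Lmo2 were 0.28 ± 0.36 at E10 and 1.18 ± 0.33 at E11 (edgeR adjusted p = 0.0338), and those of Erg had opposite signs (-0.67 ± 0.72 and 0.49 ± 0.63), each smaller than its error or close to it.

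**Figure D4:**
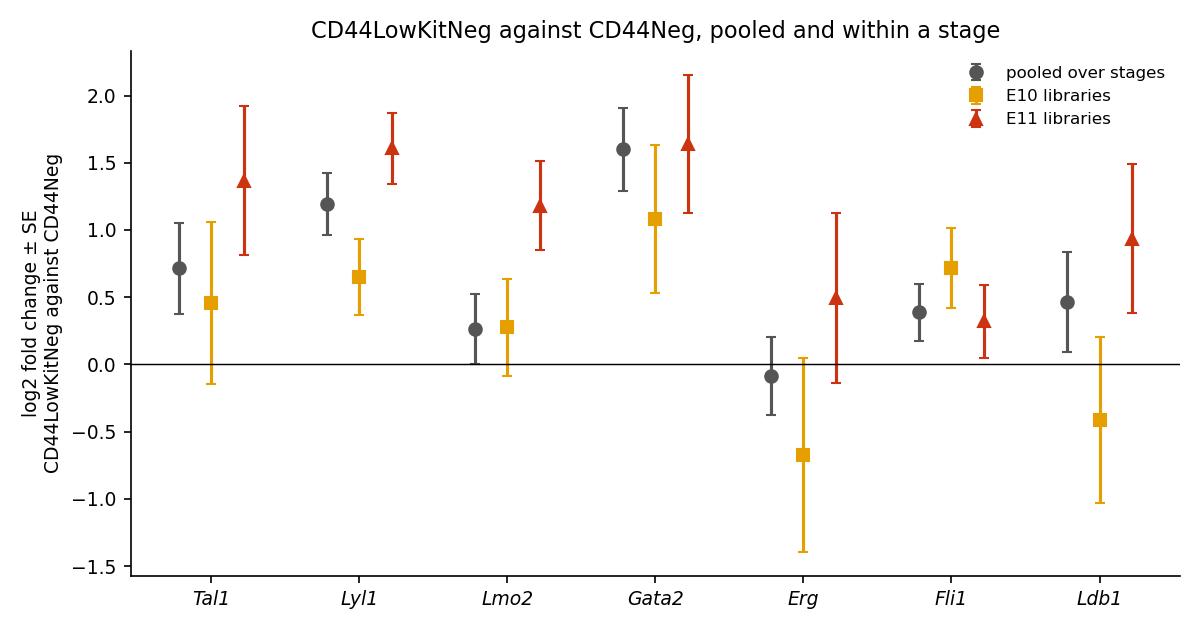
Log2 fold change ± SE (vertical axis) of each gene in CD44LowKitNeg against CD44Neg, pooled over stages in the 16-library fit and within E10 or E11 in the 22-library fit of population and stage. Lyl1 is 0.65 at E10 and 1.61 at E11, and Gata2 is 1.08 at E10 and 1.64 at E11, with no interaction called for either gene.

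The proteins that assemble with these factors were described from a list of 18 complex partners and inhibitors of E-proteins. The counts of this and the following lists stand beside the shares of all genes that edgeR called higher and lower. These were 4.94 and 5.23% for CD44LowKitNeg against CD44Neg, 2.55 and 1.71% for CD44LowKitPos against CD44LowKitNeg and 2.08 and 1.41% for CD44LowKitPos against CD44Neg. For CD44High they were 0.78 and 2.23% against CD44LowKitPos, 7.79 and 8.17% against CD44LowKitNeg and 7.14 and 7.25% against CD44Neg. In CD44LowKitNeg against CD44Neg, 4 were higher and 1 was lower among 14 tested (median log2 fold change 0.41, where the median over all genes lay between -0.02 and 0.01 in each comparison of populations). Cbfa2t3, which encodes the corepressor ETO2 of the TAL1 complex, rose by 1.72 ± 0.24 (edgeR adjusted p = 6.1e-05), from a mean of 22.4 to 73.3 CPM. It was called at E11, where 422 genes were, but not at E10 alone (1.79, edgeR adjusted p = 0.0219), where 30 were. Id1, an inhibitor that sequesters E-proteins, rose by 1.24 ± 0.27 (edgeR adjusted p = 0.00303) and was called at neither stage alone, with 1.90 at E10 (edgeR adjusted p = 0.0348) and 1.24 at E11 (edgeR adjusted p = 0.0862). Its relative Id2 rose by 1.03 ± 0.25 (edgeR adjusted p = 0.00536), and that call was lost in 7 of the fits that left out 1 library, among them the one without CD44LowKitNeg replicate 13 (0.89, edgeR adjusted p = 0.0205). It was also lost in the fit of all 22 libraries (1.02, edgeR adjusted p = 0.0253), at E10 alone (1.22, edgeR adjusted p = 0.240) and at E11 alone (1.26, edgeR adjusted p = 0.144). In CD44LowKitPos against CD44Neg, 3 were higher and 1 was lower among 17 tested. Lmo1, the relative of Lmo2, was at 0 counts in all CD44Neg libraries and at 21.1, 13.7 and 8.74 CPM in CD44LowKitPos, at least 18.3-fold higher. It could pass the filter on low counts only through populations where it was present, so no test is given for it. It is counted among the 3 higher genes, a place lost without replicate 17 or 18 and at E10 alone. Tcf4, an E-protein, fell by -1.65 ± 0.28 in log2 (edgeR adjusted p = 0.000574), a call lost without CD44LowKitPos replicate 17 (edgeR adjusted p = 0.0101). Between CD44LowKitPos and CD44LowKitNeg edgeR called 0 of the 17, where 7 had an unadjusted p under 0.05, DESeq2 called 3 and limma voom 5. Over all genes, 3525 of 12949 had such a p, and DESeq2 called 1265 of 12863 and limma voom 1244 of 12949.

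In CD44High 8 of the 17 partners tested were lower and 2 higher than in CD44LowKitNeg (median -1.48), and 5 were lower and 3 higher than in CD44Neg (median -1.02). The 3 include Lmo1, which was at 0 counts in all CD44Neg libraries. Ldb2, the close relative of Ldb1, was at 0, 7.46 and 0 CPM in CD44High against 98.0 to 271 CPM in CD44Neg and 65.9, 151 and 118 CPM in CD44LowKitPos. It was lower in CD44High than in each other population, by -5.53 ± 0.84 against CD44LowKitPos (edgeR adjusted p = 9.6e-05) and -6.54 ± 0.84 against CD44LowKitNeg (edgeR adjusted p = 3.7e-06), and these calls held in every fit that left out 1 library. Ldb1 made up between 7.01 and 31.3% of the summed Ldb1 and Ldb2 counts in the libraries of the 3 other populations and 69.6, 100 and 100% in CD44High. Id1 and Id3 were lower in CD44High than in CD44LowKitNeg by -3.73 ± 0.50 (edgeR adjusted p = 5.9e-06) and -3.85 ± 0.76 (edgeR adjusted p = 0.000522). Ssbp2, a single-stranded-DNA-binding protein that stabilises LDB1 complexes and was picked after its values were seen, went the other way, from a mean of 42.3 CPM in CD44Neg to 168 CPM in CD44High (1.99 ± 0.25, edgeR adjusted p = 2.1e-06). Its relative Ssbp3, also picked after its values were seen, was lower in CD44High than in CD44LowKitNeg (-1.32 ± 0.35, edgeR adjusted p = 0.00738) and CD44Neg (-1.42 ± 0.34, edgeR adjusted p = 0.00322), and fits that leave out 1 library were not examined for it.

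The other GATA factors and their FOG cofactors formed a list of 7, of which 4 were tested between CD44LowKitNeg and CD44Neg and 6 elsewhere. Gata6, an endodermal and cardiac factor, rose from CD44Neg to CD44LowKitNeg like Gata2, by 2.56 ± 0.44 (edgeR adjusted p = 0.000440), with 0.265 to 14.8 CPM against 33.4 to 61.0 CPM and no overlap. It was called at neither stage alone, where the log2 fold change was 2.29 at E10 (edgeR adjusted p = 0.240) and 3.42 at E11 (edgeR adjusted p = 0.0427). Gata1, the erythroid and megakaryocytic relative that replaces GATA2 at many sites during red cell formation, was at 0 in all CD44Neg and CD44LowKitNeg libraries, at 9.93, 0 and 0 CPM in CD44LowKitPos and at 83.3, 38.1 and 80.8 CPM in CD44High. It could pass the filter on low counts only through the libraries where it was high, so no test is given for it. Gata3 fell from CD44LowKitNeg to CD44High by -7.48 ± 1.16 (edgeR adjusted p = 3.7e-05), with 0, 1.33 and 0 CPM left. Zfpm2, the cofactor FOG2, was at 0 in all 3 CD44High libraries and was called lower than in CD44LowKitNeg (31.5, 22.9 and 70.2 CPM at E11, 14.5 CPM at E9.5, and 1.85 and 0 CPM at E10), and this call was lost with limma voom and without any 1 of the CD44High libraries (edgeR adjusted p up to 0.0158). In CD44LowKitPos against either earlier population edgeR called none of the 6, where 3 (against CD44LowKitNeg) and 2 (against CD44Neg) had an unadjusted p under 0.05 and DESeq2 called 2 and 0, and limma voom 1 and 0. Over all genes, 3525 of 12949 had such a p against CD44LowKitNeg, and DESeq2 called 1265 and limma voom 1244. Against CD44Neg these were 2631, 829 and 729.

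Of the 24 other ETS factors, 18 were tested in each comparison of populations. Ets1, an endothelial ETS factor, fell from CD44Neg to CD44LowKitNeg by -1.79 ± 0.26 (edgeR adjusted p = 9.2e-05), from 201 to 689 CPM down to 65.5 to 149 CPM, a step at which Erg and Fli1 did not change by the threshold. The Ets1 call was lost at E10 alone (-1.28 ± 0.48, edgeR adjusted p = 0.160). Its level was 21, 7.46 and 3.54 CPM in CD44High (-4.94 ± 0.58 against CD44Neg, edgeR adjusted p = 8.2e-07). Elk3 was lower in CD44High than in CD44Neg and CD44LowKitNeg, by -3.79 ± 0.46 against CD44LowKitNeg (edgeR adjusted p = 1.5e-06). Spi1, which encodes the myeloid factor PU.1, and Elf1 rose. Spi1 averaged 0.866 CPM in CD44Neg and 202 CPM in CD44LowKitPos (7.80 ± 0.97, edgeR adjusted p = 2.0e-05), and Elf1 12.6 and 85.0 CPM (2.75 ± 0.40, edgeR adjusted p = 0.000106). In CD44LowKitNeg against CD44Neg, 2 of the 18 were higher (Spi1 and Elf1) and 2 lower (median 0.13), and DESeq2 called 5 and limma voom 2. Over all genes DESeq2 called 1746 of 11012 there and limma voom 1370 of 11022. The Spi1 call was lost with limma voom, at E11 alone (6.99, edgeR adjusted p = 0.0244) and in 9 fits that left out 1 library, as far as 3.56 without CD44LowKitNeg replicate 15 (edgeR adjusted p = 0.0495). The Elf1 call was lost with limma voom, at E10 alone (1.38, edgeR adjusted p = 0.136), at E11 alone (1.52, edgeR adjusted p = 0.0427), with stage as a covariate (1.22, edgeR adjusted p = 0.0197) and in 9 fits that left out 1 library, as far as 1.33 without CD44LowKitNeg replicate 13 (edgeR adjusted p = 0.0307). Between CD44High and CD44Neg 2 were higher and 3 lower (median -0.34). Between CD44LowKitPos and CD44LowKitNeg edgeR called 0, where 7 had an unadjusted p under 0.05 and DESeq2 and limma voom called 2 each. Over all genes, 3525 of 12949 had such a p, and DESeq2 called 1265 of 12863 and limma voom 1244 of 12949.

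**Figure D5:**
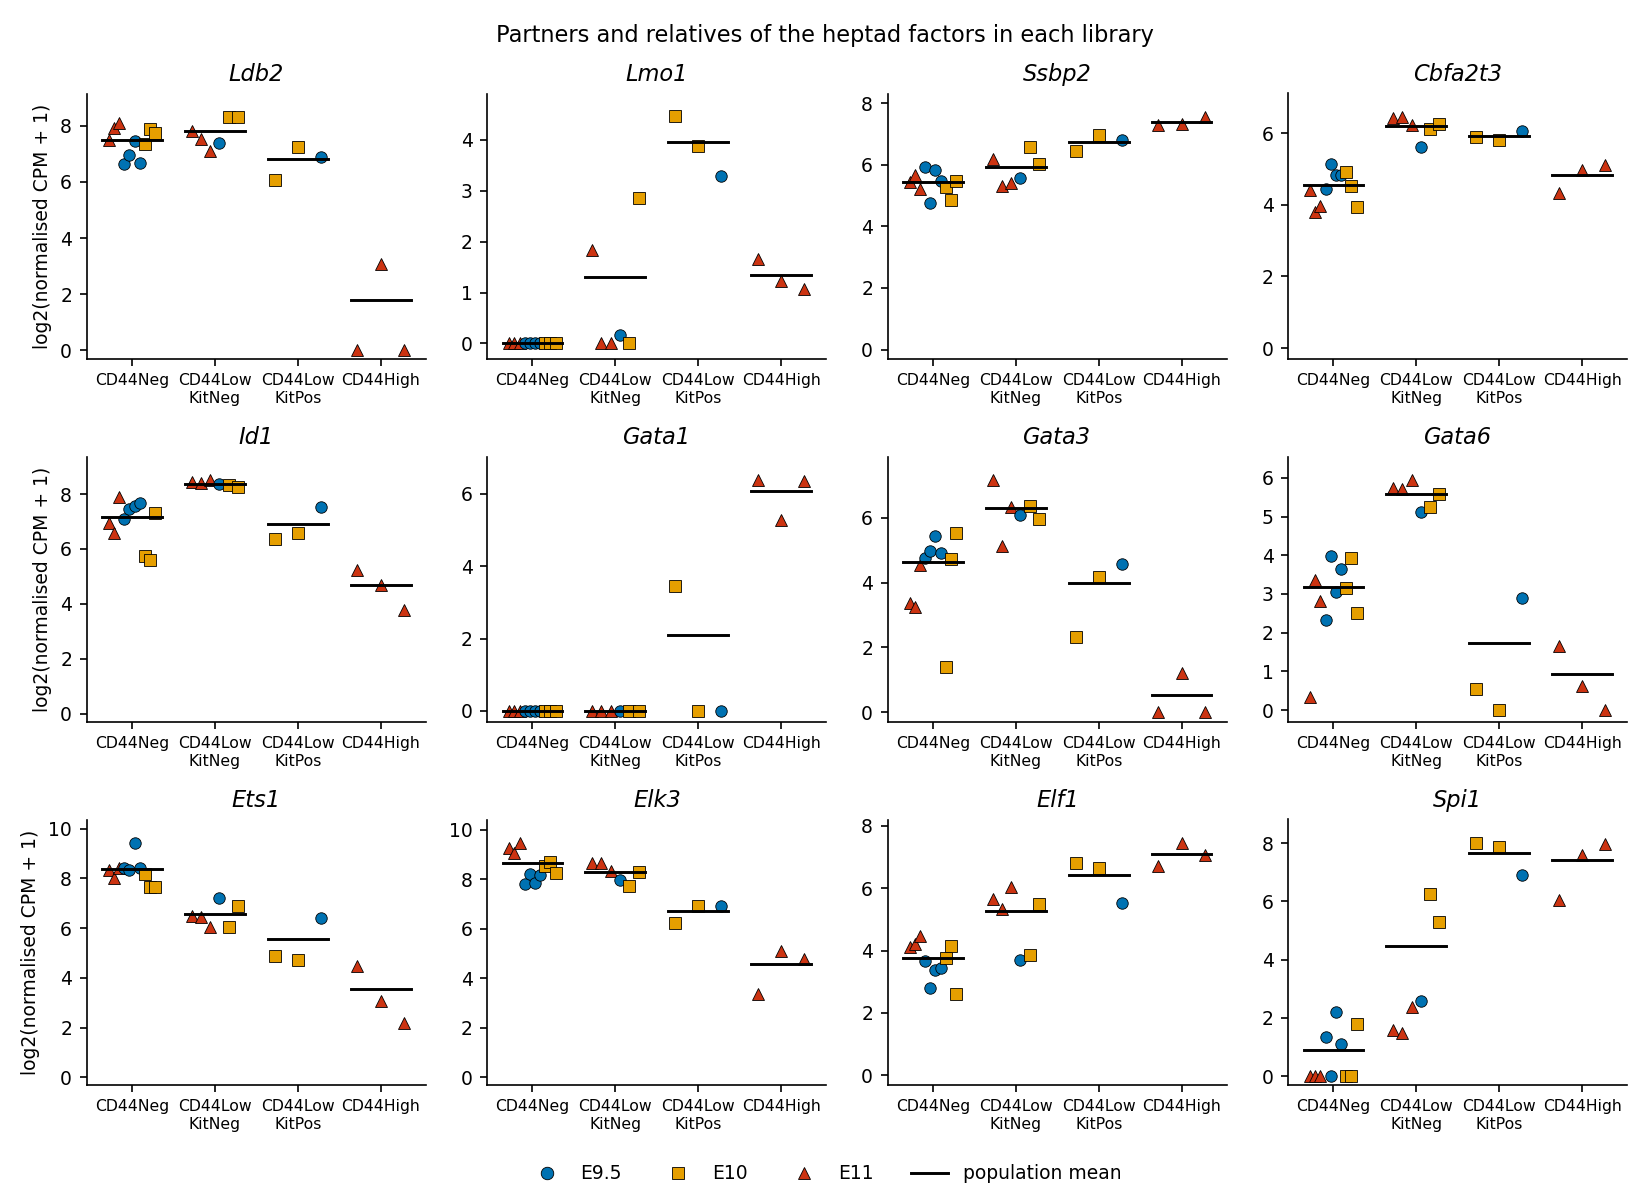
log2(normalised CPM + 1) (vertical axis) of partners and relatives of the 7 genes in every library, by population, with the symbol marking the stage and the line the population mean. Ldb2 (0, 7.46 and 0 CPM) and Gata3 (0, 1.33 and 0 CPM) are at or near the bottom in CD44High, where Gata1 (38.1 to 83.3 CPM) is well above the other populations.

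Genes long known as targets of these factors formed 2 further lists. Of 10 endothelial targets, 3 were higher in CD44LowKitNeg than in CD44Neg, among them Tek, the angiopoietin receptor (1.41 ± 0.17, edgeR adjusted p = 1.9e-05), and Cdh5 (1.48 ± 0.24, edgeR adjusted p = 0.000300). Both were called at E11 and not at E10 alone, where 422 and 30 genes were called in all. From CD44LowKitNeg to CD44LowKitPos 5 of the 10 fell (median -2.26), with Kdr, the VEGF receptor, at -3.03 ± 0.53 (edgeR adjusted p = 0.00112, and 0.0109 without CD44LowKitPos replicate 18), and Tek at -2.59 ± 0.36 (edgeR adjusted p = 0.000152), while none of the 7 factors changed there by the threshold. All 10 were lower in CD44High than in CD44LowKitNeg (median -7.77), and Cdh5 was at least 1170-fold lower. These genes include the gate's own marker and the markers used to describe the sort, so their direction is not independent of it.

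Of 10 blood targets, 4 passed the filter on low counts between CD44LowKitNeg and CD44Neg and 9 elsewhere, and genes absent from the earlier populations could pass only through a population where they were high. edgeR called 0 of the 4 in the first comparison, where 2 had an unadjusted p under 0.05, DESeq2 called 1 and limma voom 0. Over all genes, 3588 of 11022 had such a p, and DESeq2 called 1746 of 11012 and limma voom 1370 of 11022. From CD44LowKitNeg to CD44LowKitPos 2 were higher, among them Gfi1b. This gene, which encodes a repressor that shuts off endothelial genes, had a mean of 0.0559 CPM, under the limit of detection, in CD44LowKitNeg. Its mean was 44.2 CPM in CD44LowKitPos. Because it was absent or nearly so in the earlier populations, no test is given for it, and its call was lost at E10 alone. From CD44LowKitPos to CD44High 1 was higher, Klf1, the erythroid factor, with means of 0.155 CPM, under the limit of detection, and 113 CPM. It was also at 0 counts in all CD44LowKitNeg libraries, so no test is given for it. DESeq2 did not make this call, and it was lost with stage as a covariate. Against CD44Neg, 4 were higher in CD44LowKitPos and 6 in CD44High. Both counts include Gfi1b, which was at 0 counts in all CD44Neg libraries.

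In the stage comparisons and the interaction, edgeR called 0 genes of all 5 lists. In CD44LowKitNeg, 7 of the 10 endothelial targets had an unadjusted p under 0.05 between E11 and the earlier stages, with a median of 1.11, and DESeq2 called 5 and limma voom 7. Over all genes there, 2510 of 14609 had such a p, and DESeq2 called 598 of 14546 and limma voom 520 of 14609. In the other lists and stage comparisons at most 5 genes had an unadjusted p under 0.05, and at most 2 were called by either of these tools. Over all 14609 genes, 1739 (CD44Neg stages) and 1341 (interaction) had such a p, and DESeq2 called 180 and 53 and limma voom 93 and 16.

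Each gene was also set beside all 12949 genes tested, by the root mean square difference of log2 CPM after centring each gene on its mean over the 22 libraries. The nearest were Sigirr (0.572), Smarcd2 (0.587) and Snhg20 (0.599) for Tal1, and Rnh1 (0.498), R3hdm4 (0.502) and Borcs8 (0.508) for Lyl1. For Lmo2 they were 1110008F13Rik (0.434), Mien1 (0.438) and Plekhf2 (0.452), for Ldb1 Rgl2 (0.403), Clptm1 (0.447) and Nisch (0.481), and for Gata2 Serf1 (0.533), Pnrc1 (0.607) and Sptssa (0.608). For Erg they were Ptprf (0.502), Fam171a1 (0.603) and Luzp1 (0.609), and for Fli1 Spin1 (0.284), Ccdc47 (0.313) and Txndc12 (0.316). No gene of the 7 was among the 3 nearest of another. The closest pair within the 7 by this distance was Lyl1 and Tal1 (0.713), although Tal1 was only the 299th nearest gene to Lyl1, and the most distant was Erg and Lmo2 (1.80).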

How the data were processed

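Whole-number read counts per gene symbol were deposited by the authors, who clipped adaptors with FASTX, mapped with RNA STAR and counted with htseq-count on a Galaxy server. The submitters' processing notes name the mm10 build, FastQC and HTSeq, and the annotation and strand setting are not given in the sources used here. All 22 columns were assigned to libraries by their labels. Totals ran from 3912350 to 8657546 reads per library, and libraries were sequenced together. The single-cell data of the study were not analysed here.

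Counts were analysed in R 4.3.3 with edgeR 4.0.16 (filterByExpr with a minimum count of 10 and minimum total of 15, TMM scaling, quasi-likelihood F test with a prior count of 0.125, Benjamini-Hochberg adjustment over all genes tested, called at an adjusted p under 0.01). CD44LowKitNeg was compared with CD44Neg over their 16 libraries, the other populations in 1 fit of 22 libraries, and stages and the interaction in a fit of population by stage. Standard errors were derived from the F statistic, and levels are CPM after TMM over 22 libraries. DESeq2 1.42.0, limma 3.58.1 (voom), other scaling and filters, stage as a covariate, single stages and leaving out each library were alternatives. The fits were tested on simulated counts, and a gene that was not called is not shown to be unchanged. Python 3.11.15, pandas 2.3.3 and matplotlib 3.10.9 made the summaries.

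The 7 genes, the partner, GATA, ETS and target lists, the marker lists (endothelial, blood, macrophage, erythroid, megakaryocyte, mesenchyme, neural) and the tests were chosen with earlier results of these data known. Of each list, at most the 3 called genes with the largest log2 fold change in a comparison were eligible to be named, beside the 7 genes, Cd44, Kit, Cdh5, Runx1 and the 3 nearest genes of each of the 7. Ssbp2 and Ssbp3 were named outside this rule after their values were seen, as were the overlapping genes Nfix and Pprc1. 1 gene of the blood target list is not reported here by name.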

Additional observations from a re-analysis of the deposited data

Results flagged for a closer look

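Among 21 groups of 4 to 10 libraries examined for a value far from the others by Dixon's test at the 95% level, 3 values stood out, and chance alone gives about 5% of groups. Tal1 was at 25.2 CPM in CD44LowKitNeg replicate 14, the single E9.5 library of that population, with the 5 others between 33.8 and 37.3 CPM. In the same library Fli1 was at 447 CPM, above the next value of 274 CPM and the lowest of 186 CPM. Fli1 was at 384 CPM in CD44Neg replicate 6, also an E9.5 library, above the next value of 259 CPM and the lowest of 137 CPM. Rn45s took 1.92% of the counts in CD44Neg replicate 6, the lowest share of the 22 libraries, and its part in the Fli1 value was not tested.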

How the results depend on the processing

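No pairing by replicate was possible because the replicate numbers run from 1 to 22 with no number shared between populations. Stage, with which the date changes, was tried as a covariate. Over 1826 comparisons of a member gene with an alternative setting, 1784 kept direction and side of the threshold, 24 gained a call, 5 lost one and 13 turned in direction, and no called difference turned. The lost calls were Lyl1 and Gata2 in CD44LowKitNeg against CD44Neg at E10 alone (0.65 and 1.08), Gata2 there at E11 alone (1.64), and Lyl1 in CD44LowKitPos against CD44Neg without CD44LowKitPos replicate 17 or 18 (log2 fold changes over all libraries left out 1.04 to 1.74). Calls of Gata2, Fli1 and Lyl1 in CD44High against CD44LowKitNeg, Lmo2 in CD44High against CD44Neg, Erg in CD44High against CD44LowKitPos, and Lyl1 between stages of CD44LowKitNeg were gained under some settings.

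Differences that turned were all uncalled. Without CD44High replicate 22, Tal1 (-0.33) and Gata2 (0.14) turned in CD44High against CD44Neg (up to 0.59 and down to -0.99 over all libraries left out), and without CD44High replicate 20 Ldb1 (0.05) in CD44High against CD44LowKitPos. Without CD44LowKitPos replicate 17, Lyl1 (-0.17) and Lmo2 (-0.12) turned against CD44LowKitNeg and Ldb1 (0.15) in CD44High against CD44LowKitPos (their other extremes were 0.53, 0.54 and -0.79). In CD44LowKitNeg, without replicate 14, Tal1 (-0.084) turned between stages (other extreme 0.21). Between CD44LowKitNeg and CD44Neg, Erg turned at E11 alone (0.49) and without CD44Neg replicate 9 (0.05) or CD44LowKitNeg replicate 14 (0.047), 15 (0.03) or 16 (0.0015), and Ldb1 at E10 alone (-0.41).

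Counts over all genes moved more. With DESeq2 they were 1746 (CD44LowKitNeg against CD44Neg), 1265 (CD44LowKitPos against CD44LowKitNeg), 829 (CD44LowKitPos against CD44Neg), 716 (CD44High against CD44LowKitPos), 180 (CD44Neg E11 against E9.5), 598 (CD44LowKitNeg E11 against earlier) and 53 (interaction), and with limma voom 1244 and 729 for CD44LowKitPos and 93, 520 and 16 for the stage comparisons and interaction. At an adjusted p under 0.05 the 9 counts were 2217, 1619, 941, 784, 3471, 2917, 99, 497 and 20, in the order CD44LowKitNeg against CD44Neg, CD44LowKitPos against CD44LowKitNeg and CD44Neg, CD44High against CD44LowKitPos, CD44LowKitNeg and CD44Neg, both stage comparisons and the interaction. Genes with at least 10 counts in every library gave 190 for CD44LowKitPos against CD44Neg, 116, 1179 and 839 for CD44High in that order, 24 for CD44Neg stages and 0 for the interaction (752 at an unadjusted p under 0.05). Without a filter the stage comparisons and interaction gave 101, 509 and 64, with only the libraries compared 79, 49 and 1, and with DESeq2 size factors the interaction gave 1. Single stages gave 30 (E10) and 422 (E11) for CD44LowKitNeg against CD44Neg and 287 (E10) for CD44LowKitPos against CD44LowKitNeg, where stage as a covariate gave 366. DESeq2 size factors changed the balance of that comparison from 330 higher and 222 lower to 218 and 273, with a shift of the median of all genes from -0.02 to -0.16. DESeq2 gave 429 and 836 there, 262 and 567 for CD44LowKitPos against CD44Neg (269 and 182 with edgeR), and 1001 and 1664 and 859 and 1394 for CD44High against CD44LowKitNeg and CD44Neg (1009 and 1058, 925 and 939 with edgeR). With limma voom CD44High gave 361 and 124 against CD44LowKitPos (101 and 289 with edgeR), 1473 and 835 against CD44LowKitNeg and 1123 and 678 against CD44Neg. Leaving out 1 library gave 875 to 1222, 65 to 687, 159 to 630, 251 to 408, 1334 to 2176, 1340 to 1889, 0 to 30, 53 to 290 and 1 to 12 in the order above. The lowest counts for CD44LowKitPos came without its replicate 17 (65) or 18 (159), that for CD44High against CD44LowKitNeg without CD44High replicate 22 (1334), and those of the stage comparisons without CD44Neg replicate 1 (0) and CD44LowKitNeg replicate 14 (53), the last chosen after seeing the data. The cause of these shifts was not tested. With 3 libraries each, CD44LowKitPos and CD44High limit every comparison they enter, and Erg rests on 1 to 33 reads in CD44High.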
